A study of Mus musculus with 2 samples.

Results

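The cells described here were late spermatids of the mouse testis that carried the RNAs of Klk1b8, Paqr5 and Tmem269 most strongly. Single-cell RNA sequencing had been performed on testis of 12-week-old C57BL/6 mice, in 1 library of the genotype WT and 1 library of the genotype Alkbh5-/- (KO). Alkbh5 encodes an RNA demethylase that removes N6-methyladenosine (m6A) from RNA, and every cell of the KO animals, germ cell or somatic, lacked a working copy. Whether a library came from a single mouse or from pooled mice was not clear from the sources used here. With 1 library per genotype there was no replicate, so no test between genotypes was possible and no p-value is given. Each KO/WT ratio below stands with an exact Poisson 95% interval, and each share with an exact Clopper-Pearson 95% interval, both of which cover counting error only.

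Members were chosen by measured values, in 2 steps. First, barcodes with a unique molecular identifier (UMI, 1 counted RNA molecule) for at least 2 of 10 markers of Leydig, Sertoli, macrophage, spermatogonial and early meiotic cells were left out. Second, the level of 3 genes in each of 10 stage sets, named A to J in their order along spermatogenesis, was z-scored and averaged. A barcode was a member where set I, the 3 genes above, scored highest. This gave 661 members of 5756 barcodes in WT and 236 of 7012 in KO, 897 of 12768 in all. Set H (Tnp2, Tex37, Cstl1) held the preceding stage, set J (Spem1, Car2, Tssk6) the following one, and set G (Prss58, Prss51, Gm136) the stage before H.

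As background, spermatids at this point have stopped or nearly stopped transcription. Histones are replaced by transition proteins and then by protamines, the nucleus condenses and elongates, and the tail is completed. Proteins are made from mRNAs that were stored for days in ribonucleoprotein particles and then released to ribosomes in order. A change of RNA level at this stage therefore takes place in a cell that makes little new RNA. The m6A mark acts on splicing, decay and translation of mRNA.

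The first gene of the set, Klk1b8, encodes a member of the kallikrein 1b family of serine proteases. Paqr5 encodes a membrane receptor of the progestin and adipoQ receptor family, and Tmem269 a transmembrane protein of unknown function. Their promoters are shown because these 3 genes define the cells. The RefSeq sequences (GRCm38.p6) run from 100 bases before the annotated start to 50 bases after it, 5′ to 3′ on the gene's strand, with the transcribed bases in capitals. They lie at chr7:43950566-43950715 (plus strand), chr9:62026741-62026890 (minus strand) and chr4:119218168-119218317 (minus strand).
Klk1b8: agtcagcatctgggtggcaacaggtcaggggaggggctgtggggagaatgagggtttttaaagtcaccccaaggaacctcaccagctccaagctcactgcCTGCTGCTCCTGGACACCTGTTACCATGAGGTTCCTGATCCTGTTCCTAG
Paqr5: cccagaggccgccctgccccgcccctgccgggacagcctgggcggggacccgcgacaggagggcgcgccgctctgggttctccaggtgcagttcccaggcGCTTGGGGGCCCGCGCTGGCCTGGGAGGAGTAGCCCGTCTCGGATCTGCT
Tmem269: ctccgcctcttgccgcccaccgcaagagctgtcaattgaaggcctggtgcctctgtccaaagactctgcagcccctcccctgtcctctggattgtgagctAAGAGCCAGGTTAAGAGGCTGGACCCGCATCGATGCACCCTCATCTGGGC

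Over the full 300-base window of each promoter, both strands were searched for 3 motifs. The TATA box letters TATAAA were in none of the 3 windows and in 13.6% of 32851 RefSeq promoters of the same length. The TGACG letters found in cAMP response elements were in none of the 3 and in 20.8% of all promoters. ATTGG, the Y-box core, was found 2 times in the Klk1b8 window, in neither of the other two, and in 37.4% of all promoters.

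The identity of the members was checked against the other stages, as a description with no test, since the sets were cut from these same cells. The set genes had been used to choose the cells, so their high level is no finding. Tmem269 was at 219 counts per 1000000 UMIs (CPM) in WT members and 201 in KO members, against 58 and 48 in set H and 48 and 49 in set J (first value WT, second KO). Klk1b8 built up over 4 stages, from 674 CPM in WT set F through 859 in G and 1038 in H to 1309 in members, and was 879 in J. Paqr5 followed the same course, with 1162, 1486 and 873 CPM in H, members and J of WT. A Klk1b8 UMI was also found in 26.4% of 72 WT and 28.5% of 1045 KO barcodes of Leydig type (UMIs for Insl3, Cyp17a1 and Hsd3b1; median 10166 and 8179 UMIs), where its level was 6.79% and 9.04% of that in members. For Tmem269 this was 1.14% and 1.50%.

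Only Tmem269, which had helped to choose the cells, was at least 2-fold above every other set, 1 gene in the 1806 that 25% or more of members held (0.0554%). Counted at any margin, 120 of 1806 genes (6.64%) were highest in members. Behind Tmem269 came 1700008P02Rik, Paqr5 and Klk1b8, each 0.39 above the next set on the log2 CPM scale. Klk1b3, Hspa1l, Klk1b9 and Klk1 followed at 0.26, 0.26, 0.25 and 0.23. Hspa1l encodes a testis heat shock protein of the HSP70 family. The 4 kallikreins lie on chromosome 7 between 43950664 and 44229618 (GRCm38), are close in sequence, and could share reads, so the 3 beside Klk1b8 are uncertain.

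**Figure D1:**
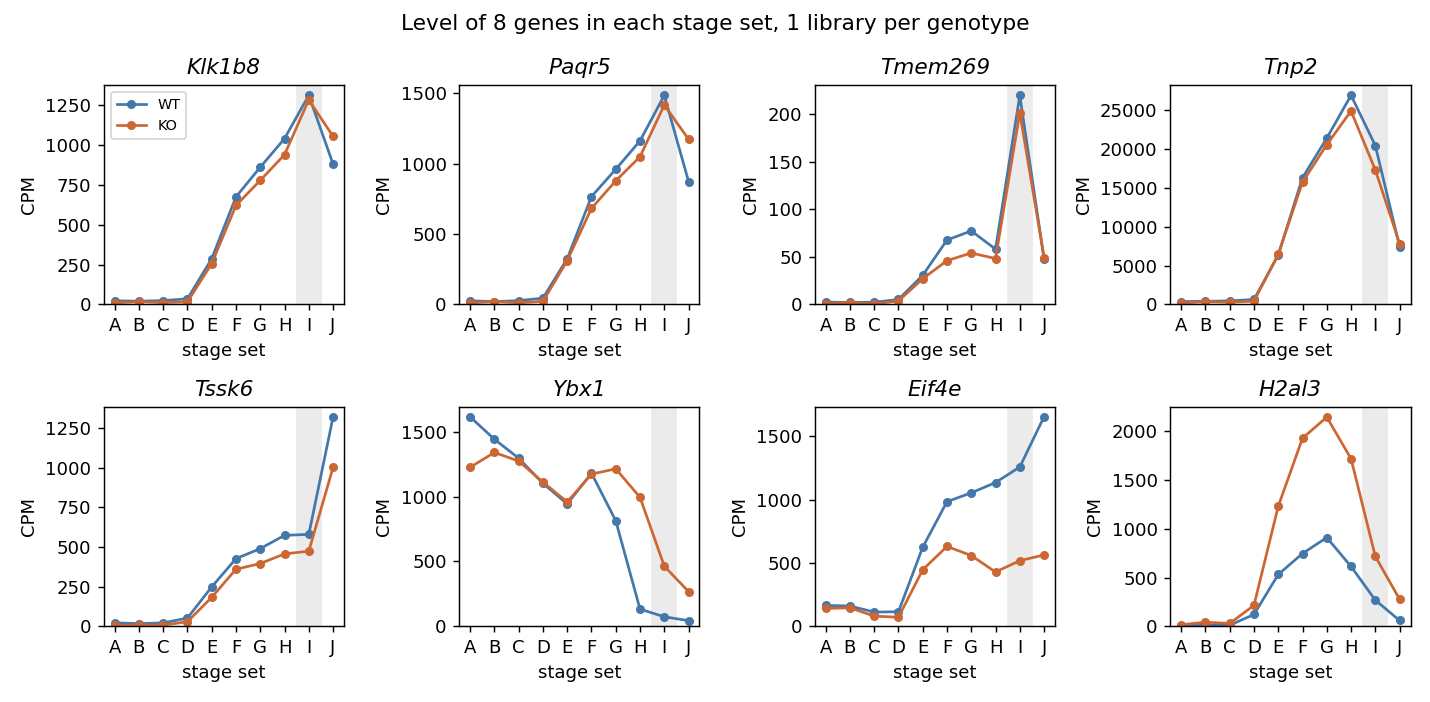
Level of 8 genes (CPM, linear axis from 0) in each of the 10 stage sets A to J, WT in blue and KO in orange, 1 library each, with the Klk1b8 stage (set I) shaded. Klk1b8 and Paqr5 climb over several stages, Tmem269 peaks in set I alone, and the lines of Ybx1, Eif4e and H2al3 part between genotypes.

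The stage stood closer to the one before it than to the one after. Of 2109 genes, 42 (1.99%) were at least 2-fold lower in members than in set H and 1, Tmem269, was higher (0.0474%). Among those lower, Cypt1, a cysteine-rich perinuclear theca gene, went from 2194 CPM in H to 874, the testis histone variant gene H2al3 from 1167 to 493, and the kinase gene Tssk1 from 170 to 72.7. Against set J, 154 of 1871 genes (8.23%) were higher in members and 4 (0.214%) lower. Above J stood Phf7 (843 against 283 CPM), which encodes a histone ubiquitin ligase, and Sqor (235 against 70.1), which encodes a mitochondrial sulfide oxidoreductase. The 4 genes that were 2-fold higher in J were Tssk6 (527 against 1162 CPM), a kinase gene used in set J itself, Spem2 (273 against 560), a neighbour of Spem1, Bri3bp (145 against 294) and the deubiquitinase gene Otud3 (24.9 against 55.9). Against set G, 682 of 2628 genes (26%) were lower in members and 1 higher (0.0381%).

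The most abundant RNAs encoded the proteins that pack the sperm nucleus. Prm1 was at 177283 CPM in WT members and 148591 in KO members, and Prm2 at 48336 and 45854. Transition protein RNAs were still present, with Tnp2 at 20463 and 17324 CPM and Tnp1 at 15003 and 12759. These 4 genes took 26.1% of the UMIs of WT members and 22.5% of those of KO members. Smcp, a protein of the mitochondrial capsule of the midpiece, was at 16782 and 15212 CPM. Single members varied: Prm1 had a median of 1460 UMIs in WT (range 114 to 8324) and 1131 in KO (2 to 4938).

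Members lay between their neighbours in score. The median set I score was 1.54 in WT and 1.47 in KO, and the median lead over the next set was 0.291 and 0.240. The next set was H in 48.9% of WT and 48.7% of KO members and J in 44.6% and 39.0%. It was G in 3.93% of WT members (2.59 to 5.71) and 8.47% of KO members (5.25 to 12.8). Of all members, 94 led by less than 0.05, and 108 other barcodes missed by less than that. Tmem269 was at 162 and 160 CPM (WT, KO) in the former and 141 and 125 in the latter, and Klk1b8 at 1176 and 1111 against 1160 and 1146; these levels follow from the choice by score.

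The libraries held 80283221 UMIs in WT and 82056760 in KO, and members a median of 8047 and 7493 UMIs and of 1526 and 1605 genes. Alkbh5 itself had 607 UMIs in the WT library and 5 in the KO library. In members it had 6 UMIs in WT and 0 in KO, where 0 allows up to 3 counts or 1.35 CPM. The libraries shared 45 cell barcodes, of which 7 were WT members and none KO members. All 15 Leydig markers together summed to 108 UMIs (16.9 CPM) in WT members, with Nr5a1 at 0, and to 433 UMIs (195 CPM) in KO members. A single KO member held 183 of the latter, and without it the KO sum was 250 UMIs (113 CPM). The 16 Sertoli markers summed to 103 UMIs (16.1 CPM) and 323 (145 CPM), with Cldn11, Sox9, Amh and Fshr at 0 in both and Wt1 and Gata4 at 0 in WT. The highest WT member held 37 and the highest KO member 51 of them, and without these the sums were 66 UMIs (10.4 CPM) and 272 (123 CPM). A UMI for a Leydig marker was found in 11.8% of WT and 50.8% of KO members. The Leydig level was 0.0283% of that in Leydig barcodes in WT and 0.317% in KO, and the Sertoli level 0.0724% and 0.502% of that in 23 and 468 barcodes with UMIs for Cst9, Cst12 and Cldn11. The 12 macrophage markers summed to 94.2 and 91.8 CPM, the 11 spermatogonial markers to 16.8 and 24.7, and the 11 early spermatocyte markers to 59.6 and 81.0.

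The stage was thinner in KO. Members were 11.5% of all WT barcodes (10.7 to 12.3) and 3.37% of all KO barcodes (2.96 to 3.81), a KO/WT ratio of 0.293 (0.252 to 0.341). The marker step had left out 6.34% of WT barcodes and 39.0% of KO barcodes, which lowers every KO share of germ cells. Over the barcodes that passed this step, the shares were 12.3% and 5.52% and the ratio 0.450 (0.386 to 0.523). On this footing the ratio was 0.985 in set G, 0.824 in H, 0.450 in members and 0.412 in J, so it was lowest in the last of these stages. Among sets H, I and J alone, members were 33.7% in WT and 27.0% in KO (ratio 0.802, 0.688 to 0.932). Set H made up 33.1% and 48.6% of these cells. These counts are of captured barcodes in 1 library each, and variation between animals was not measured.

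**Figure D2:**
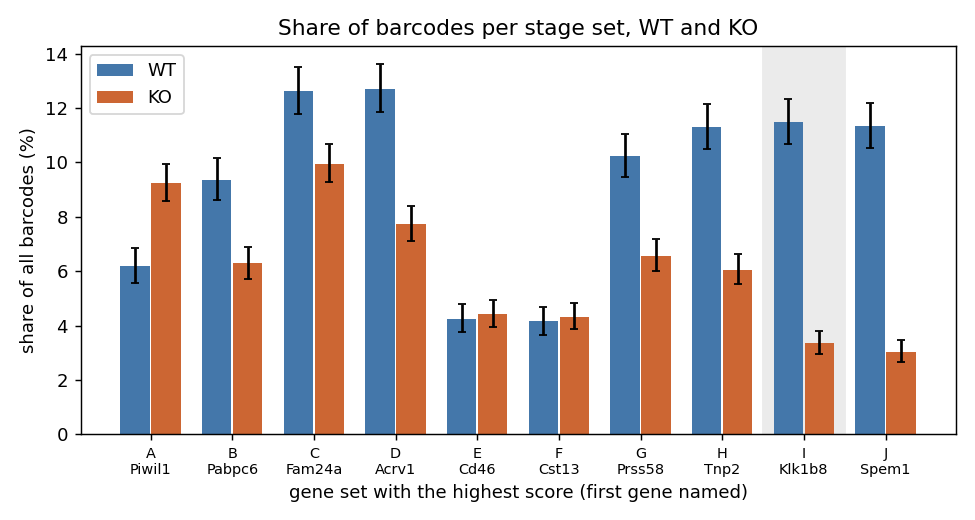
Share of all barcodes (percent, linear axis from 0) in each stage set A to J, labelled with its first gene, WT in blue and KO in orange, with exact Clopper-Pearson 95% intervals as error bars and the Klk1b8 stage shaded. Set I holds 11.5% of WT and 3.37% of KO barcodes, set H 11.3% and 6.06%, and sets E and F similar shares in both.

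KO and WT members were then compared gene by gene. A gene was called where the natural log of the mean per 10000 UMIs plus 1 differed by at least 0.25, among 2142 genes detected in 25% or more of the members of either genotype. This is a criterion of size and not a test. By it 197 genes (9.2%) were higher in KO members and 45 (2.1%) lower, 11.3% in either direction. A gene could enter through the genotype where it was high. Ybx3 (17.5% of WT and 36.9% of KO members) and Rpl4 (18.6% and 39.4%) entered through KO, and Galnt10 (31.2% and 1.69%) through WT. The shares called, here and in the lists below, include such genes and are descriptions only. The numbers depended on the choices: 377 of 2195 genes (17.2%) were higher with z-scores taken within each library, and 114 were higher and 24 lower by a CPM ratio of at least 2. The median log2 KO/WT ratio over the 10477 genes with at least 10 UMIs was 0.14. Genes of higher count could pass with smaller ratios, so both the ratio and the levels are given.

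**Figure D3:**
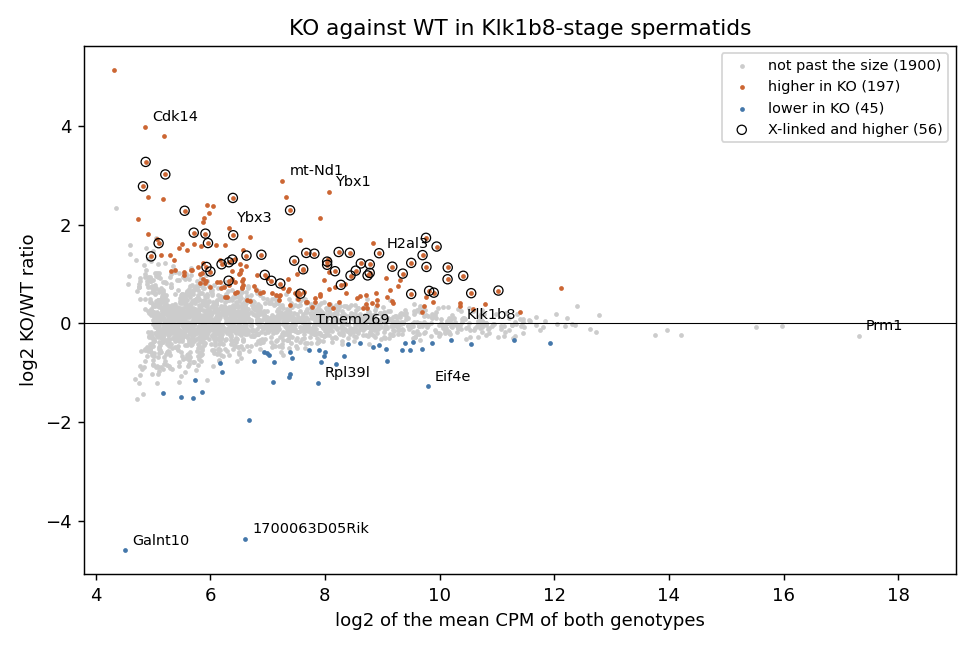
Log2 KO/WT ratio against the log2 of the mean CPM of both genotypes for the 2142 genes compared in Klk1b8-stage members, one point per gene, with the 197 genes higher in KO in orange, the 45 lower in blue and the 56 X-linked genes among the higher ones ringed. Ybx1 and mt-Nd1 lie far above the other genes of their level, and Galnt10 and 1700063D05Rik far below.

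RNA-binding and translation genes differed in both directions. Of 15 such genes compared, 4 were higher in KO members (Ybx1, Ybx3, Papolb, Mael) and 2 lower (Eif4e, Larp1), or 26.7% and 13.3% against 9.2% and 2.1% of all genes. The median over the 29 list genes with at least 10 UMIs was -0.09, against 0.14 over all genes. Ybx1 and Ybx3 encode Y-box proteins, which package and silence stored mRNA. Ybx1 (chromosome 4, 119277981 to 119294604, minus strand) had 465 UMIs or 72.9 CPM in WT members and 1029 UMIs or 463 CPM in KO members, a log2 ratio of 2.67 (2.51 to 2.83). A Ybx1 UMI was found in 26.8% of WT and 74.2% of KO members, and in 19.2% and 68.8% when each member was thinned to 5514 UMIs. Its median per member was 0 UMIs in WT and 2 in KO, with a highest value of 22 and 37. Ybx3 was at 33.4 and 128 CPM (1.94, 1.67 to 2.20). Ybx2, the germ cell Y-box gene, was at 426 and 412 CPM (-0.05, -0.16 to 0.06), so the 3 family members had unlike ratios.

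The Ybx1 difference began at the elongating stages. In sets C, D, E and F its log2 KO/WT ratio lay between -0.02 and 0.02. WT levels then went from 1180 CPM in F to 814 in G, 132 in H, 72.9 in members and 43 in J. KO levels were 1173, 1214, 994, 463 and 267 CPM in the same order. The decline was thus present in both libraries and later in the order of stages in KO, with ratios of 0.58 in G, 2.91 in H, 2.67 in members and 2.63 in J. Leydig barcodes of KO held 424 CPM of Ybx1, close to the level in KO members. Scaled to the Leydig and Sertoli marker levels of KO members, the Ybx1 of those cell types came to 1.34 and 2.23 CPM. A contribution of other cells to Ybx1 was not tested. In the 558 WT and 88 KO members without any Leydig or Sertoli marker UMI the ratio was 3.07.

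Mael and Papolb were also higher. Mael, a protein of the piRNA pathway and the chromatoid body, was at 115 and 212 CPM (0.89, 0.72 to 1.06), and its ratio was 1.21 in set H. Papolb, the testis cytoplasmic poly(A) polymerase, was at 122 and 245 CPM (1.01, 0.85 to 1.17), with ratios of 0.37 in H and 2.35 in J. For both, the interval of the ratio lay above 0 in H, in members and in J.

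Eif4e, the mRNA cap-binding factor that starts translation, went the other way. It was at 1258 CPM (8028 UMIs) in WT members and 518 CPM (1152 UMIs) in KO members, a log2 ratio of -1.28 (-1.37 to -1.19). Its median per member was 11 UMIs in WT and 4 in KO. The ratio was already -0.64 in set F and -0.92 in G, and was -1.41 in H and -1.56 in J. In WT the Eif4e level climbed with each stage from F to J, and in KO it did not. Larp1, which binds capped mRNAs of the translation machinery, was at 175 and 101 CPM (-0.79, -1.0 to -0.58).

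**Figure D4:**
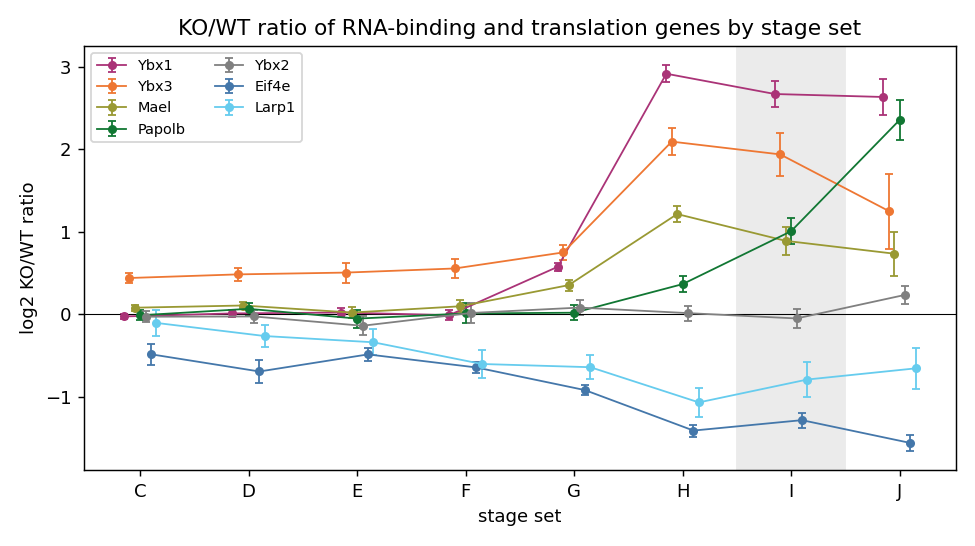
Log2 KO/WT ratio of 7 RNA-binding and translation genes in stage sets C to J, points with exact Poisson 95% intervals (counting error only) and the Klk1b8 stage shaded. Ybx1 lies at 0 up to set F and reaches 2.91 in H and 2.67 in I, Ybx2 stays near 0, and Eif4e falls from -0.64 in F to -1.28 in I.

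Ribosomal protein genes moved in both directions. Of 63 compared, 12 were higher in KO members (19.05%) and 4 lower (6.35%: Rpl29, Rpl37a, Rpl39l, Rps27), against 9.2% and 2.1% of all genes, with a median log2 ratio of 0.29 over 82 genes. They took 2.21% of the UMIs of WT members and 2.48% of those of KO members. Rpl39l, the testis-specific form of a large-subunit protein, was at 327 CPM in WT members and 142 in KO members. Ribosomal protein genes have many processed pseudogenes, which could share reads with them.

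X-linked RNAs stood apart, a pattern that was noticed in these data and is given as a description. Of 78 X-linked genes compared, 56 (71.8%) were higher in KO members and 0 lower, against 131 (6.51%) and 45 (2.24%) of 2011 autosomal genes and 9.2% of all genes. Over genes with at least 10 UMIs the median log2 KO/WT ratio was 1.19 for 305 X-linked genes and 0.13 for 9904 autosomal genes. All X-linked genes took 2.35% of the UMIs of WT members and 4.21% of those of KO members. Per member the X share had quartiles of 2.11% and 2.56% in WT and 3.68% and 4.75% in KO. These quartiles describe the cells of 1 library each and not variation between animals. The 56 called genes had log2 ratios from 0.60 to 3.27. Some passed the detection filter through KO alone, such as Gm15091 (4.84% of WT and 33.9% of KO members), which had the highest of these ratios. The filter thus favoured the share called, while the median ratio does not use it. Not every X-linked RNA differed so much: Akap4, the main anchoring protein of the fibrous sheath, was at 3885 and 4437 CPM (0.19, 0.16 to 0.23) and was not called.

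The X-linked shift was present in every stage set. Its median log2 ratio was highest in set A, at 2.11, and was 0.92 in B, 0.71 in C and 0.92 in D. It was 1.17 in E, 1.26 in F, 1.24 in G, 1.29 in H and 1.54 in J. Autosomal medians lay between 0.01 and 0.38 over the 10 sets. In Leydig barcodes the median was -0.06 for 641 X-linked and -0.12 for 14404 autosomal genes. The Leydig barcodes of the same libraries thus did not show the shift. The 17 Y-linked genes with at least 10 UMIs in members had a median of 1.09. Of them 15 were above 0, against 6157 of all 10477 genes with that count. The Y-linked genes together took 0.0101% and 0.0196% of UMIs, which are small counts. In the members without Leydig or Sertoli UMIs (558 in WT, 88 in KO), 61 of 76 X-linked genes (80.3%) were higher, against 222 of all 2120 genes (10.5%).

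**Figure D5:**
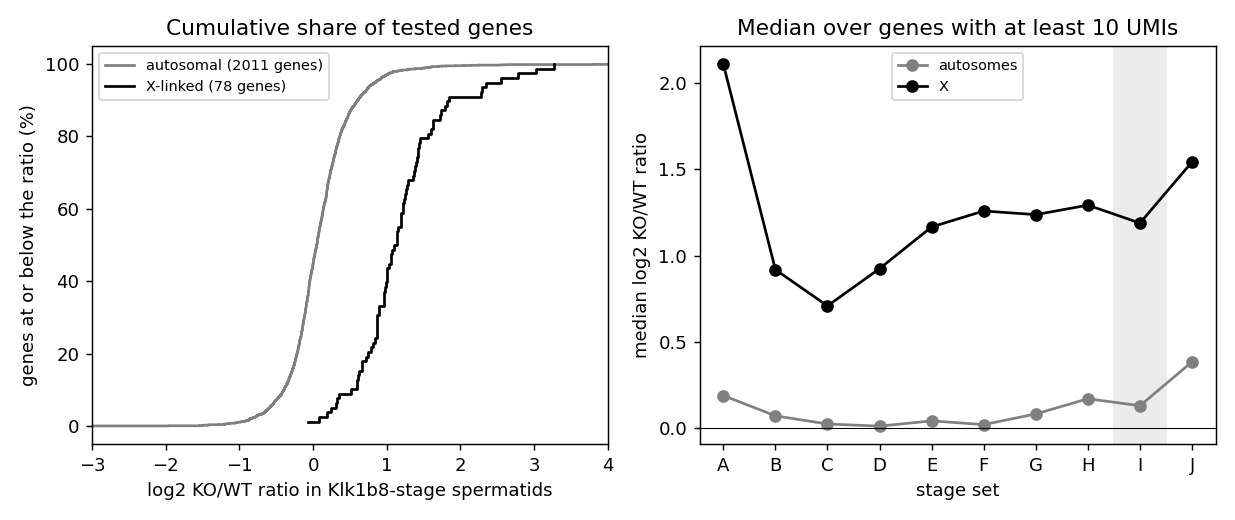
Left, cumulative share (percent) of the 2011 autosomal (grey) and 78 X-linked (black) genes compared in Klk1b8-stage members by their log2 KO/WT ratio; right, median log2 KO/WT ratio of genes with at least 10 UMIs in each stage set, Klk1b8 stage shaded. The X-linked curve lies to the right of the autosomal one, and in set I the medians are 1.19 and 0.13.

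Genes of nuclear condensation were partly X-linked as well. Of 15 compared, 3 were higher in KO members (20%) and 1 lower (6.67%), against 9.2% and 2.1% of all genes, with a median of 0.06 over 22 genes. The 3 were the X-linked histone variant genes H2al1m (56.6 and 103 CPM; 0.86, but -0.11 in members that led by at least 0.5), H2al1n (187 and 504 CPM; 1.43, 1.31 to 1.55) and H2al3 (268 and 718 CPM; 1.42, 1.32 to 1.52). Members of this family are close in sequence, and reads could be split among them. Prm3, the acidic protamine-like gene, was lower, at 4429 and 3344 CPM (-0.41, -0.44 to -0.37). Prm1 (-0.25, -0.26 to -0.25), Prm2 (-0.08), Tnp1 (-0.23) and Tnp2 (-0.24) lay below 0 and were not called. Of the perinuclear theca genes, X-linked Cypt1 was at 544 and 1203 CPM (1.14) and Cypt15 at 24.6 and 144 CPM (2.54). X-linked Cypt2 (2.29), Cypt3 (1.13) and Cypt14 (1.05) were also called higher. So were autosomal Cypt4 (0.31) and Cypt12 (0.23), with smaller ratios. Cypt15 passed the detection filter through KO alone (15.3% of WT and 42.8% of KO members), as did Cypt2 and Cypt14.

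The tail genes formed 3 lists, to be read against the 9.2% of all genes called higher and 2.1% lower. Of 19 genes listed under fibrous sheath and outer dense fibres, 3 were called higher (15.8%) and 1 lower (5.26%), with a median of 0.15 over 22. This list was not of tail genes alone. Its X-linked Cylc1 (155 and 370 CPM, log2 ratio 1.25) and Actrt1 (108 and 190 CPM, log2 ratio 0.81) encode cytoskeletal proteins of the sperm head. The share of 15.8% therefore does not describe the tail. Of the 3 higher genes, the remaining one was Ropn1l, a fibrous sheath protein. It was at 195 and 244 CPM (0.33), and had -0.14 when members were weighted equally by their second set. Oaz3, the haploid antizyme that restrains polyamine synthesis, was lower at 2805 and 2229 CPM (-0.33). Of 13 axoneme and manchette genes 1 was called (7.69%), Meig1, which acts in manchette transport (2481 and 2901 CPM; 0.23), and the median was -0.08 over 35. None of 12 genes of the mitochondrial sheath was called (median -0.09 over 21).

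The metabolic and surface lists are given against the same shares of all genes, 9.2% higher and 2.1% lower. Of 12 glycolytic genes 2 were called higher (16.7%), the sperm lactate dehydrogenase gene Ldhc (1385 and 1696 CPM; 0.29) and its somatic form Ldha (41.1 and 76.5 CPM; 0.90), with a median of 0.08 over 15. These paralogs lie side by side on chromosome 7. Of 9 acrosome and egg-binding genes 1 was called (11.1%), Prss37, a protease-like gene needed for sperm migration (88.1 and 166 CPM; 0.92), with a median of -0.31 over 38. None of 6 ion channels and transporters was called (median -0.17 over 24). Of 24 genes of cytoplasm removal and ubiquitin 1 was called (4.17%), the E2 enzyme gene Ube2b (147 and 190 CPM; 0.37), with a median of -0.01 over 34. Of 9 testis kinase and signalling genes 1 was called (11.1%), Tssk1 (55.0 and 90.4 CPM; 0.72), with a median of -0.01 over 14. In the members that led by at least 0.5 its ratio was -0.13.

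The families of the defining genes had few members to compare, against 11.3% of all genes called. None of 5 kallikreins was called (median 0.35 over 11 genes) and none of 4 PAQR family genes (median 0.06 over 7). Klk1b8 itself was at 1309 and 1280 CPM (-0.03, -0.09 to 0.03), which the choice of the cells helped to fix. None of 4 spermatid transcription regulators (median 0.08 over 20), and not the 1 apoptosis gene compared (median 0.00 over 18), was called. Of the m6A enzymes and readers 1 was detected often enough to be compared. It was Igf2bp3, an RNA-binding protein that stabilises m6A-marked mRNA, with 2258 UMIs (354 CPM) in WT and 615 (277 CPM) in KO, a log2 ratio of -0.36 (-0.49 to -0.23), and it was not called.

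Mitochondrially encoded RNAs were higher in KO members. All 5 respiratory chain genes compared were called higher, against 9.2% of all genes. Of these, mt-Cytb, mt-Nd1, mt-Nd2 and mt-Nd4 passed the detection filter through KO alone. For mt-Nd1, a UMI was found in 13.9% of WT and 47.5% of KO members. The filter thus favoured their calls, and no conclusion is drawn from the share called. The median log2 ratio, which does not use this filter, was 2.46 over 8 genes. mt-Co1 was at 88.9 and 393 CPM (2.14, 1.99 to 2.30) and mt-Nd1 at 36.2 and 269 CPM (2.89, 2.67 to 3.12). The 2 mitochondrial ribosomal RNA genes, which took most mitochondrial UMIs, had smaller ratios, 0.53 for mt-Rnr1 and 0.73 for mt-Rnr2. All mitochondrial UMIs together were 0.429% in WT and 0.784% in KO members, with medians per member of 0.421% and 0.633%. Leydig and Sertoli RNA moved with this list: without members that held a UMI for either, the median was 1.47 and the KO share 0.565%.

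Among the compared genes with at least 100 UMIs, Cdk14 had the highest ratio. Cdk14, a cyclin-dependent kinase on chromosome 5, had 22 UMIs (3.45 CPM) in WT and 122 (54.9 CPM) in KO (3.99, 3.33 to 4.72), with a UMI in 2.72% and 37.7% of members. Ptgds, a prostaglandin synthase and a marker of Leydig cells, was at 4.86 and 67.9 CPM (3.81), and moved with the other Leydig markers. The noncoding X-linked Gm15091, 9530051G07Rik and 4930453H23Rik had ratios of 3.27, 3.02 and 2.78. Lcn2, a secreted lipocalin, was at 10.7 and 61.2 CPM (2.52).

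The lowest ratios among compared genes with at least 100 UMIs were those of Galnt10 and a noncoding RNA. Galnt10, an enzyme of mucin-type O-glycosylation on chromosome 11 (57645442 to 57787514, plus strand), had 279 UMIs in WT members and 4 in KO members (-4.60, -6.49 to -3.23). The antisense gene 4933426K07Rik, which lies within it (57655415 to 57657826, minus strand), went the other way, with 55 and 114 UMIs (2.57, 2.10 to 3.06). Since use of strand in counting is not given in the sources used here, reads of these overlapping genes cannot be told apart. Galnt10 ends 2.75 Mb before Alkbh5, which starts at 60536381 on the same chromosome, and Larp1 (58009064 to 58062034) lies between them. The noncoding 1700063D05Rik (chromosome 9, 41192446 to 41217990) had 1189 UMIs in WT and 20 in KO (-4.37, -5.09 to -3.74), and was found in 73.5% and 6.36% of members. Also lower were Gm10638 (-1.96), which overlaps Siah1a, Chpt1 (-1.51), a phospholipid synthesis gene that overlaps Sycp3, 2810408I11Rik (-1.50), which overlaps Ccnyl1, 1700112M02Rik (-1.41) and Fxyd2 (-1.40), a regulator of the sodium pump. The complement gene C1qb, one of the markers used to leave out barcodes, had 265 UMIs in WT and 34 in KO (-1.44, not called), while its partner C1qa was at 0 in both.

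Most genes called higher in KO were lower in WT set J than in WT set G. Between WT sets G and J, neither of which holds members, 725 of the 2142 compared genes (33.8%) were at least 2-fold lower in J. Of the 197 genes higher in KO members 126 (64.0%) were, and of the 45 lower ones 4 (8.89%). Leaving out the X-linked genes, the share was 103 of 141 (73.0%) of the higher genes. Among the 56 X-linked ones it was 23 (41.1%), close to the 38.5% of all 78 X-linked genes compared. This grouping was made after the values had been seen and was not tested. Some of the higher genes passed the detection filter through KO alone, such as Cdk14 (2.72% of WT and 37.7% of KO members) and Ybx3 (17.5% and 36.9%). Their low level in late WT cells favours a decline in WT, so the 33.8% of all compared genes is not an even background. KO members also had set G as their next set more often than WT members (8.47% against 3.93%).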

How the data were processed

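Single cells of the testis had been captured and sequenced with the GEXSCOPE kit, which tags each RNA molecule with a UMI. The authors deposited 1 table of raw UMI counts per gene and barcode for each library, not normalized. The tool list of the labels names FastQC 0.11.7, fastp 1, STAR 2.5.3a, featureCounts 1.6.2 and Seurat 3.2.2n. The study's methods name a human genome build although the gene symbols are those of mouse, and do not give the use of strand. The tables held 36547 gene symbols in all, of which 30609 were in both. A gene listed in 1 table only was taken as 0 in the other. Of all symbols 35456 matched GENCODE vM21 (GRCm38) once, and positions come from that match.

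Members were set by their markers as described, and their UMIs were summed per library. Ratios are of CPM, with the exact conditional Poisson 95% interval, and a sum of 0 was taken at 3 counts. The size criterion followed Seurat's marker search, with its default log difference of 0.25 and the detection in 25% that the study set. The members, the gene lists and the alternatives were chosen with earlier results of these data known. Named genes were the 10 most abundant, the 20 highest over the other sets, and 10 on each side of sets H and J. Also named were the 12 highest and 12 lowest KO/WT ratios with at least 100 UMIs, and the list genes. Rpl39l, mt-Rnr1, mt-Rnr2, Cypt2, Cypt3, Cypt4, Cypt12 and Cypt14 were singled out after their values were seen. List medians use genes with at least 10 UMIs.

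The deposited barcodes had at least 5142 (WT) and 4792 (KO) UMIs, and none was removed for depth. Scrublet (scanpy 1.11.5) marked 243 WT (4.22%) and 348 KO (4.96%) barcodes as possible doublets, of which 18 and 7 were members, and these were kept. On simulated counts with 200 genes changed 3-fold among 2126 tested, the criterion recovered 100% of raised and 96% of lowered genes and called 0 unchanged ones. These counts were drawn from the summed WT member profile, and the changed genes were not among those of low level. Variation between cells, stages and libraries and RNA of other cell types were left out. The simulation therefore says nothing about calls that arise from these. Alternatives changed the scaling of scores, the margin, the marker step, doublets, depth, totals, weights of members and the filters. Results were computed with Python 3.11.15, numpy 2.4.6, scipy 1.17.1 and pandas 2.3.3.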

Additional observations from a re-analysis of the deposited data

Results flagged for a closer look

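The KO/WT ratio of 10 genes pointed in opposite directions in the members and in an earlier stage set, with both counting intervals clear of 0. The differences between stages were not tested, since each genotype was 1 library. The share of all genes that change direction in this way is not given here. The number 10 therefore has no background to be read against. The germ cell genes were higher in KO members and lower in KO at an earlier stage. The log2 ratio of Cst13, a cystatin gene of set F, was 1.74 in members, -0.53 in set C and -0.17 in set F. Ldha had 0.90 in members against -0.36 in C, -0.38 in D and -0.25 in E. For Tssk1 it was 0.72 in members against -0.18 in C, -0.09 in D and -0.11 in E. Ube2b had 0.37 in members against -0.23 in D, -0.14 in E and -0.21 in F. The others were Prss37 (0.92, and -0.13 in F), Prss58, a set G gene (0.38, and -0.08 in G), and Ropn1l (0.33, and -0.05 in F). Cst13 helped to choose the set F cells and Prss58 the set G cells. Their ratios in those sets were therefore partly fixed by the rule, and for Prss58 no other set was opposite. The mitochondrial genes mt-Cytb (2.57), mt-Nd2 (2.39) and mt-Nd4 (2.39) were at -0.33, -0.21 and -0.45 in set C. The direction in members was not stable for Tssk1, at -0.13 in members that led by at least 0.5, and for Ropn1l, at -0.14 with equal weights.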

How the results depend on the processing

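No paired analysis was possible because each genotype was 1 library with no replicate number, so leaving out a replicate was not possible either.

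With z-scores within each library, members were 9.54% of WT and 4.58% of KO barcodes (ratio 0.480). A lead of at least 0.5 left 3.08% and 0.799%, and allowing 0 of the 10 markers left 7.85% and 2.30%. Over barcodes that passed the marker step the KO share was 5.52% (ratio 0.450). Allowing up to 2 markers, an alternative chosen after seeing the data, gave 4.31% (0.363). The ratio stayed under 1 in each of these. Doublets did not move the shares beyond their intervals.

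Genes higher in KO numbered 377 with z-scores within each library, of which 193 were among the 197. A CPM ratio of at least 2 gave 114 higher (92 shared) and 24 lower (13 shared). The share of X-linked genes higher was 53.1% with a UMI in 10% of members, 60.3% by a CPM ratio of 2 and 3.99% of 1528 genes with no filter, where all genes gave 5.78%, 5.32% and 0.676%. No X-linked gene was lower in the 13 alternatives run. Tmem269 was the only gene 2-fold above every other set in the 3 alternatives run. Each of these still chose the cells by Tmem269, so its place was largely fixed by the rule. No gene outside the rule reached 2-fold in any of them.

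The median log2 ratio of all genes was 0.37 with z-scores within each library, 0.092 at the lead of 0.5, 0.17 without doublets, 0.092 scaled by the median ratio (a shift of 0.051), 0.023 with equal weights by second set and 0.064 over genes with 50 UMIs. After seeing the data, set I scores of at least 1 gave 0.12 and members with no Leydig or Sertoli UMI gave 0.0998. In the same order of settings, acrosome genes were at 0.11, 0.0027 and 0.010, then -0.99 with equal weights, and ion channels at 0.20, 0.15, 0.13 and -0.75. The signs of these 2 list medians therefore depended on the setting. With z-scores within each library, axoneme genes were at 0.12 and translation genes at 0.17. Their main medians were -0.08 and -0.09, so the signs of these lists depended on the setting as well. At the lead of 0.5, glycolytic genes were at 0.18, apoptosis genes at -0.58 (5 genes) and spermatogonial markers at -0.46. The last were at -0.27 by the median ratio, -0.24 with equal weights and -0.36 without Leydig or Sertoli UMIs, over at most 3 genes. Mitochondrially encoded genes were at 1.98 with scores of at least 1 and at 1.47 without Leydig or Sertoli UMIs.

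The mitochondrial share in WT and KO was 0.451% and 0.809% with z-scores within each library, 0.526% and 0.934% at the lead of 0.5, 0.406% and 0.565% without Leydig or Sertoli UMIs, and 0.421% and 0.633% as cell medians. Without doublets it was 0.708% in KO. It was higher in KO in each. Of 4287 values of 439 named genes under alternatives, 3610 stayed within their interval and 674 left it. Among called genes 3 values changed sign, and 214 genes that were not called had the other sign in at least 1 alternative. At the lead of 0.5 H2al1m was at -0.11 and Tssk1 at -0.13, and with equal weights Ropn1l was at -0.14. The cause was not tested for any of these changes. Depth limited RNAs under about 10 UMIs in all, and a sum of 0 in KO members allows 1.35 CPM.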
